A study of Drosophila melanogaster with 6 samples.

Results

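The drosomycin family of *Drosophila melanogaster* consists of the antifungal peptide gene *Drs* and its paralogues *Drsl1* to *Drsl6*. All 7 genes were found by their symbols among the 13858 genes measured. Their levels were compared between larvae with whole-body knockdown of *Dctn1*, the fly gene for the p150 subunit of dynactin, and control larvae. In the knockdown group (3 libraries, replicates 1, 2 and 3) the ubiquitous driver *Act5C*-GAL4 activated the transgene UAS-*Dctn1*-RNAi (VDRC line 3785). The control group (3 libraries, replicates 2, 3 and 4) carried the driver without the transgene. All larvae were females at the L3b stage, at 96 h counted from egg laying in the study's methods but from hatching in the series description. They were kept at 25 °C with grape agar and yeast as food, and each library was made from a pool of 12 to 15 whole larvae. *Dctn1* itself (DCTN1-p150 among the symbols used) was at 15.3, 15.2 and 12.5 FPKM in controls and at 7.33, 7.96 and 6.85 FPKM in knockdown larvae. In FPKM its level was thus 51.5% of the control, a partial knockdown by 1 RNAi line. The study also measured the transcript by quantitative RT-PCR in L3b larvae with this transgene and reported a strong reduction. It describes the levels as well below those expected in patients with 1 damaged gene copy. The RT-PCR and FPKM values were not compared here. Here and below, values of single libraries stand in the order of their replicate numbers.

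Drosomycin is a small secreted peptide of the defensin type, held together by disulphide bonds, that acts mainly on fungi. During systemic infection it is made by the fat body, the counterpart of the liver, and released into the haemolymph after fungi or Gram-positive bacteria activate the Toll pathway. In barrier epithelia such as the trachea, *Drs* can instead be induced through the Imd pathway, which answers to bacterial peptidoglycan. The *Drsl* genes are thought to act largely in the gut, and *Drsl3* is known as a target of JAK/STAT signalling in the infected adult gut. The systemic *Drs* was therefore set against its gut-expressed relatives. RNA came from whole larvae, so the tissue that made each transcript was not measured, and fewer cells of a type cannot be told apart from less RNA per cell.

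The family lies within 55594 bases of chromosome arm 3L in the BDGP6.54 annotation, and the build behind the FPKM values is not given in the sources used here. *Drsl2* (3L:3314349-3314681), *Drsl3* (3L:3314996-3315355), *Drsl4* (3L:3315620-3315942) and *Drsl5* (3L:3316781-3317144) stand side by side on the forward strand, 264 to 838 bases apart. *Drsl1* (3L:3335579-3335788) and *Drsl6* (3L:3336032-3336418) form a pair on the reverse strand, 18434 bases beyond *Drsl5*. *Drs* (3L:3369556-3369942) stands alone on the forward strand, 33137 bases beyond *Drsl6* and on the far side of the spectrin gene *kst*. Each member has 1 annotated transcript with a single exon and a coding sequence of 69 to 72 codons, and none overlaps another gene. The table lists the function defense response to fungus and the location extracellular region for all 7. *Drs*, *Drsl2*, *Drsl5* and *Drsl6* also carry the term antifungal humoral response, and innate immune response is listed for *Drs* alone. The members are paralogues, and how fragments that match several copies were divided among them was not tested.

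Abundance split the family into 3 genes with high levels and 4 that were almost silent. Levels are given as FPKM, fragment numbers scaled to transcript length and to library size, which allows comparison between genes. *Drs*, *Drsl2* and *Drsl5* had means of 101, 115 and 150.02 FPKM over the 6 libraries. *Drsl3*, *Drsl1*, *Drsl4* and *Drsl6* had means of 0.445, 0.288, 0.172 and 0.0367 FPKM, below the minimum mean of 0.5 FPKM set for testing. The 3 members above this minimum were tested with limma on log2(FPKM + 0.1) together with all 9978 genes that passed it. A gene was called when its adjusted p was under 0.05 and its fold change above 2, the thresholds of the study. None of the 3 tested members was called, beside 2.91% of all tested genes (1.82% higher and 1.08% lower in the knockdown). No member was called in any of the 14 alternative fits either, including the one in which every gene was tested. The unadjusted p in limma was under 0.05 for *Drs* in 5 of those 14 fits, for *Drsl2* in 1 and for *Drsl5* in 0, and for none of them in the fit reported here.

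**Figure D1:**
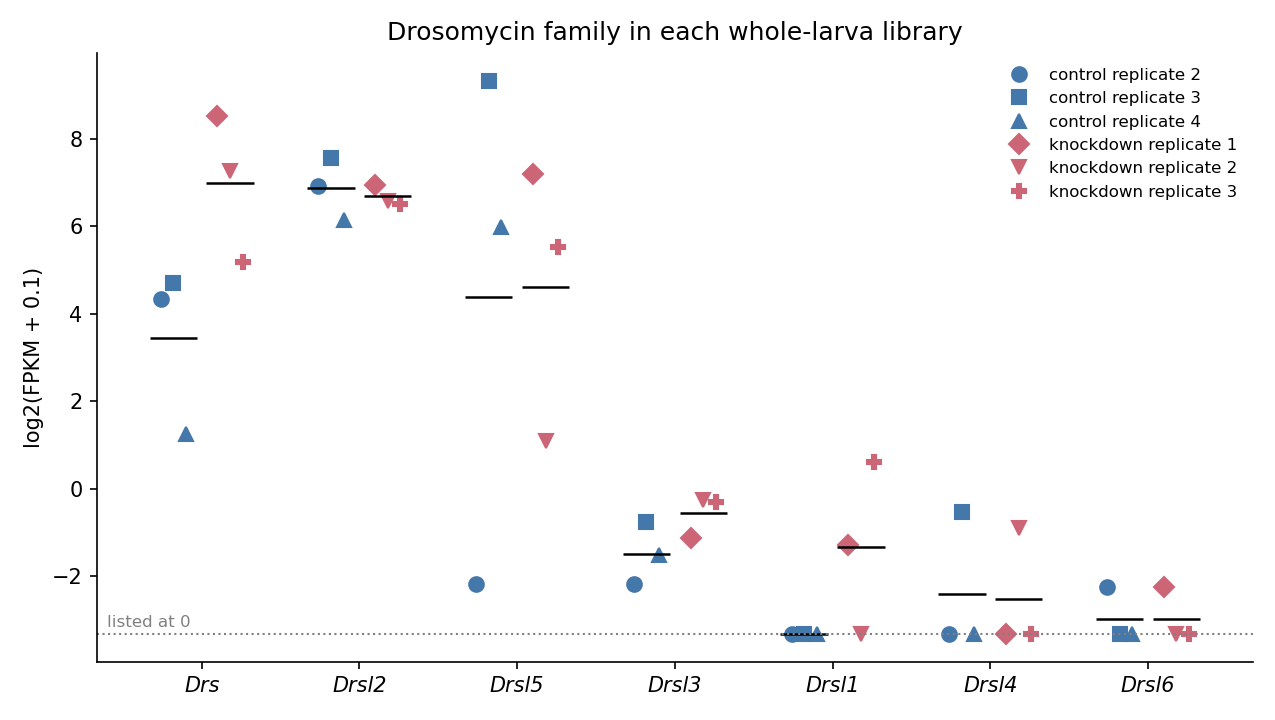
Level of each drosomycin gene as log2(FPKM + 0.1) in the 3 control libraries (blue) and the 3 knockdown libraries (red), with 1 symbol per library and black bars for group means. *Drs* is the only tested member whose knockdown libraries all lie above its control libraries. The *Drsl2* libraries overlap within a narrower range than those of *Drs* or *Drsl5*, and *Drsl5* spans from 0.12 to 642 FPKM within the controls.

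*Drs*, the systemic member, was higher in every knockdown library than in any control library. It was listed at 20.3, 26.0 and 2.30 FPKM in controls and at 366, 153 and 36.5 FPKM in knockdown larvae. The means were 16.2 ± 12.4 (SD, n = 3) and 185 ± 167 FPKM (SD, n = 3). The groups did not overlap, but the lowest knockdown library was only 1.40 times the highest control library, and the highest library of each group exceeded its lowest by 11.3 times in controls and 10.0 times in knockdown larvae. On average *Drs* was 11.7-fold higher, a log2 fold change of 3.55 with a standard error of 1.39, and its 95% interval ran from -0.18 to 7.28. *Drs* therefore missed the threshold (adjusted p = 0.213, limma with Benjamini-Hochberg adjustment). The two-sided exact permutation test on 3 against 3 libraries gave p = 0.1, the smallest value possible. Groups separated upwards in this way made up 28.8% of all tested genes, so the separation of 1 among 3 tested members lies close to the background. A value more than 2-fold higher in the knockdown, whatever its p, was less frequent, at 2.69% of tested genes. Over all genes the median log2 fold change was 0.16, and median-of-ratios scaling brought it to -0.01 while *Drs* stayed at 3.37. Control replicate 4 held the lowest *Drs* level, and without it the log2 fold change was 2.46 (adjusted p = 0.310, limma).

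*Drsl2* was the steadiest of the abundant members. It was listed at 120.2, 189.9 and 70.9 FPKM in controls and at 124, 95.4 and 91.3 FPKM in knockdown larvae. All knockdown libraries lay inside the range of the controls. The log2 fold change was -0.19 with a standard error of 0.35 (adjusted p = 0.768, limma), and its 95% interval of -1.04 to 0.65 reaches just past a 2-fold decrease and stops short of a 2-fold increase. Without control replicate 3, the highest library, the sign turned to 0.15 (adjusted p = 0.695, limma).

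*Drsl5* varied more between libraries of the same genotype than nearly any other gene. It was listed at 0.12, 642 and 63.0 FPKM in controls and at 147, 2.05 and 46.1 FPKM in knockdown larvae. Its lowest and its highest value were thus both controls, and the knockdown libraries lay between them. The log2 fold change was 0.24 with a standard error of 3.76 (adjusted p = 0.977, limma), and the 95% interval from -9.96 to 10.4 covers very large changes in both directions. Leaving out single libraries moved it between -3.04, without control replicate 2, and 2.71, without control replicate 3. The within-group SD of *Drsl5* was 4.74 on the log2(FPKM + 0.1) scale, which ranked 2 among the 9978 tested genes. For *Drs* this SD was 1.79, at rank 66, and for *Drsl2* it was 0.53, at rank 638, compared with a median of 0.20 over all tested genes.

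The 4 other members were at the edge of detection. *Drsl3* was listed at 0.12, 0.49 and 0.25 FPKM in controls and at 0.36, 0.74 and 0.71 FPKM in knockdown larvae. The groups overlapped. *Drsl1*, whose annotated transcript is the shortest at 210 bases, was listed at 0 in all 3 controls and in knockdown replicate 2, at 0.31 FPKM in knockdown replicate 1 and at 1.42 FPKM in knockdown replicate 3. *Drsl4* was above 0 only in control replicate 3, with 0.59 FPKM, and knockdown replicate 2, with 0.44 FPKM. *Drsl6* was above 0 only in control replicate 2 and knockdown replicate 1, with 0.11 FPKM in each. In the fit without a filter the adjusted p was 0.287 for *Drsl3*, 0.304 for *Drsl1* and 1 for *Drsl4* and *Drsl6* (limma, 13858 genes). A difference between the groups was not detectable at such levels. *Drsl5* in control replicate 2 was as low as *Drsl3* in the same library, at 0.12 FPKM for annotated transcripts of 364 and 360 bases.

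The share of each member in the summed FPKM of the family was taken as a description. *Drs* accounted for 14.4%, 3.03% and 1.69% of this sum in controls, and for 57.4%, 60.8% and 20.7% in knockdown larvae. All knockdown libraries thus had a larger share of *Drs* than any control, and in 2 of them *Drs* was the most abundant member. This share is built from the *Drs* level, which by itself was separated upwards, as were 28.8% of all tested genes. *Drsl2* led in control replicates 2 and 4 and in knockdown replicate 3, and *Drsl5* led only in control replicate 3, with 74.7% of the sum. The sum itself overlapped between the groups, with 141, 859 and 136 FPKM in controls and 638, 252 and 176 FPKM in knockdown larvae. The 4 nearly silent genes together never made up more than 1.21% of it.

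**Figure D2:**
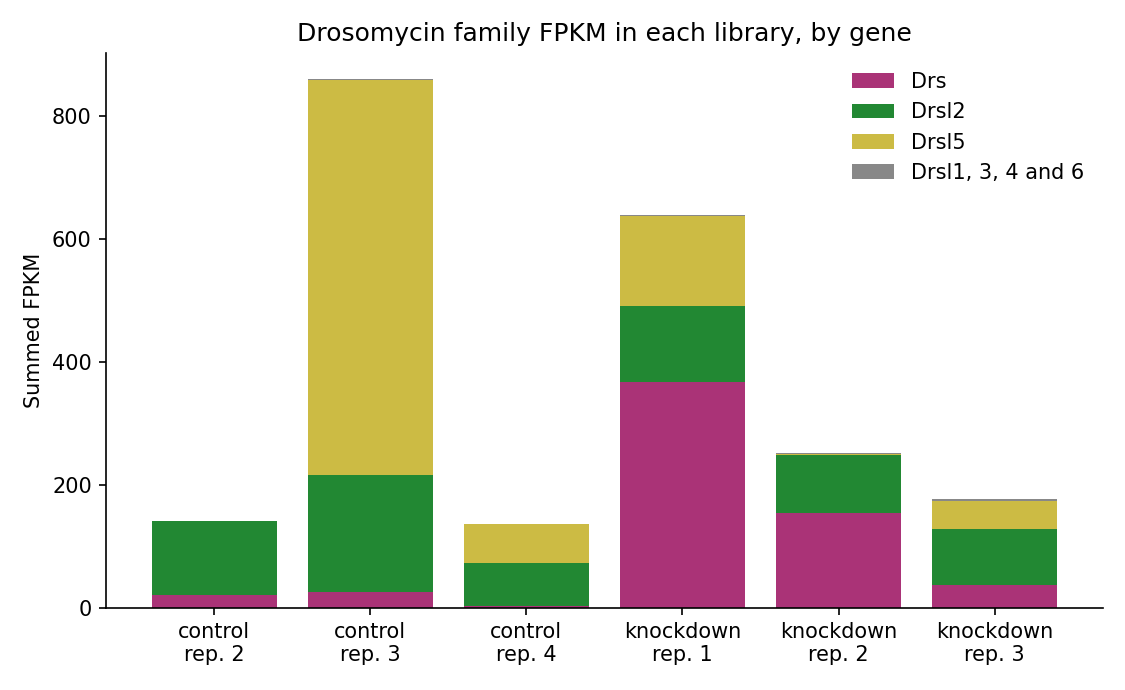
Summed FPKM of the 7 drosomycin genes in each library, stacked by gene. *Drs* makes up 1.69% to 14.4% of the family sum in controls and 20.7% to 60.8% in knockdown larvae, and *Drsl5* dominates control replicate 3 with 74.7%.

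Within single libraries, *Drs* was compared with each of the abundant *Drsl* genes. The ratio of *Drs* to *Drsl2* FPKM was 0.169, 0.137 and 0.0325 in controls, and 2.96, 1.61 and 0.400 in knockdown larvae. The groups did not overlap, and the ratio exceeded 1 in 2 knockdown libraries and in no control. *Drs* by itself was already separated upwards, as were 28.8% of all tested genes. How often such ratios separate among other gene pairs was not tested. On the log2(FPKM + 0.1) scale, the difference *Drs* minus *Drsl2* averaged -3.44 ± 1.26 in the 3 controls and 0.31 ± 1.48 in the 3 knockdown libraries (SD), so it was higher by 3.75 (standard error 1.12) in the knockdown. A two-sided exact permutation test gave p = 0.1, the smallest that this design allows, and 0.2 after Benjamini-Hochberg adjustment over the 2 pairs. Against *Drsl5* no separation was seen. The difference *Drs* minus *Drsl5* was 6.53, -4.62 and -4.72 in controls and 1.32, 6.15 and -0.34 in knockdown larvae (exact permutation test, p = 0.6, also 0.6 after adjustment). The 3 abundant members showed little common movement, as Pearson's r over the 6 libraries of both genotypes was 0.35 between *Drs* and *Drsl2*, 0.28 between *Drsl2* and *Drsl5* and -0.01 between *Drs* and *Drsl5*.

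Among the genes that act upstream of *Drs* in the Toll pathway, 0 were called. The 12 extracellular genes include the fungal sensor *GNBP3*, the proteases *spirit* and *grass* and the serpin *nec*, and had a median log2 fold change of 0.10 (-0.08 after median-of-ratios scaling). *GNBP3* was at 54.1, 65.2 and 42.4 FPKM in controls and at 60.7, 43.8 and 44.2 FPKM in knockdown larvae, and its groups overlapped. The 7 core genes, from the receptor *Tl* to the NF-kB factors *dl* and *Dif*, had a median of 0.18, beside 0.16 for all tested genes. In neither list did a gene have an adjusted p under 0.05 (limma), which 6.71% of all tested genes had. The 12 Imd pathway genes had a median of 0.21, and 5 of them had an adjusted p under 0.05 at less than a 2-fold change. Of these, the receptor *PGRP-LC* (0.54), the caspase *Dredd* (0.51) and the kinase subunits *key* (0.82) and *IKKbeta* (0.56) had positive log2 fold changes, and *pirk*, a negative regulator of the pathway, had a log2 fold change of -0.57 (adjusted p = 0.0392, limma). None of these 5 genes kept an adjusted p under 0.05 after median-of-ratios scaling (*pirk* 0.0658, the others 0.107 to 0.116), after quantile normalization or with the replicate block, and over all 14 alternatives 0 to 5 of them did (limma). *Rel*, the NF-kB factor of this pathway, was at -0.13 (adjusted p = 0.611, limma).

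Other peptides that Toll and Imd signalling are known to induce had mostly positive log2 fold changes with wide spreads. Of 15 Toll targets, namely the Bomanins, the Daisho peptides and metchnikowin, 14 were tested. All 14 had a positive log2 fold change, except that *BomS4* and *BomBc1* turned negative after median-of-ratios scaling and without control replicate 3, and *BomS4* alone after quantile normalization and without knockdown replicate 2. Their median was 1.38, beside 0.16 for all tested genes. With that median above 0, a positive value was also the more frequent one among all tested genes. Of the 14 Toll targets 2 were called, beside 2.91% of all tested genes. *BomS5* (CG15065 among the symbols used) rose from 2.76, 2.10 and 3.04 to 11.4, 11.3 and 5.58 FPKM, by 1.74 on the log2 scale (standard error 0.29, adjusted p = 0.0176, limma). *BomS6* (CG15068 among the symbols used) rose from 30.5, 23.5 and 16.4 to 79.0, 82.8 and 42.8 FPKM, by 1.52 on the log2 scale (standard error 0.32, adjusted p = 0.0445, limma). The most abundant of these peptides, *BomS3*, was at 127, 113 and 360.0 FPKM in controls and at 373, 842 and 569 FPKM in knockdown larvae, and like *Drs* it was separated between the groups without being called (adjusted p = 0.132, limma).

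Of 12 antimicrobial peptides of the diptericin, attacin, cecropin, drosocin and defensin families, 11 had a positive log2 fold change. Their median was 1.57, beside 0.16 for all tested genes, of which 2.91% were called. *AttD*, an attacin, was the only one called, with 1.26, 2.82 and 1.15 FPKM in controls and 5.03, 10.4 and 5.05 FPKM in knockdown larvae (log2 fold change 1.94, standard error 0.42, adjusted p = 0.0485, limma). Among the 12, *Def* had the largest log2 fold change (3.26, adjusted p = 0.0820, limma). It was at 0, 0.63 and 0 FPKM in controls and at 1.44, 2.32 and 1.64 FPKM in knockdown larvae. With a control mean of 0.21 FPKM, it passed the minimum mean for testing only through the knockdown libraries. After median-of-ratios scaling the adjusted p was 0.0501 for *BomS5*, 0.0610 for *BomS6* and 0.0755 for *AttD* in limma, so none of the 3 was called. *BomS5* was not called without any one of the 3 controls, *BomS6* was called without knockdown replicate 3 but in no other fit that left out 1 library, and *AttD* was called without control replicate 3 but in no other such fit.

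**Figure D3:**
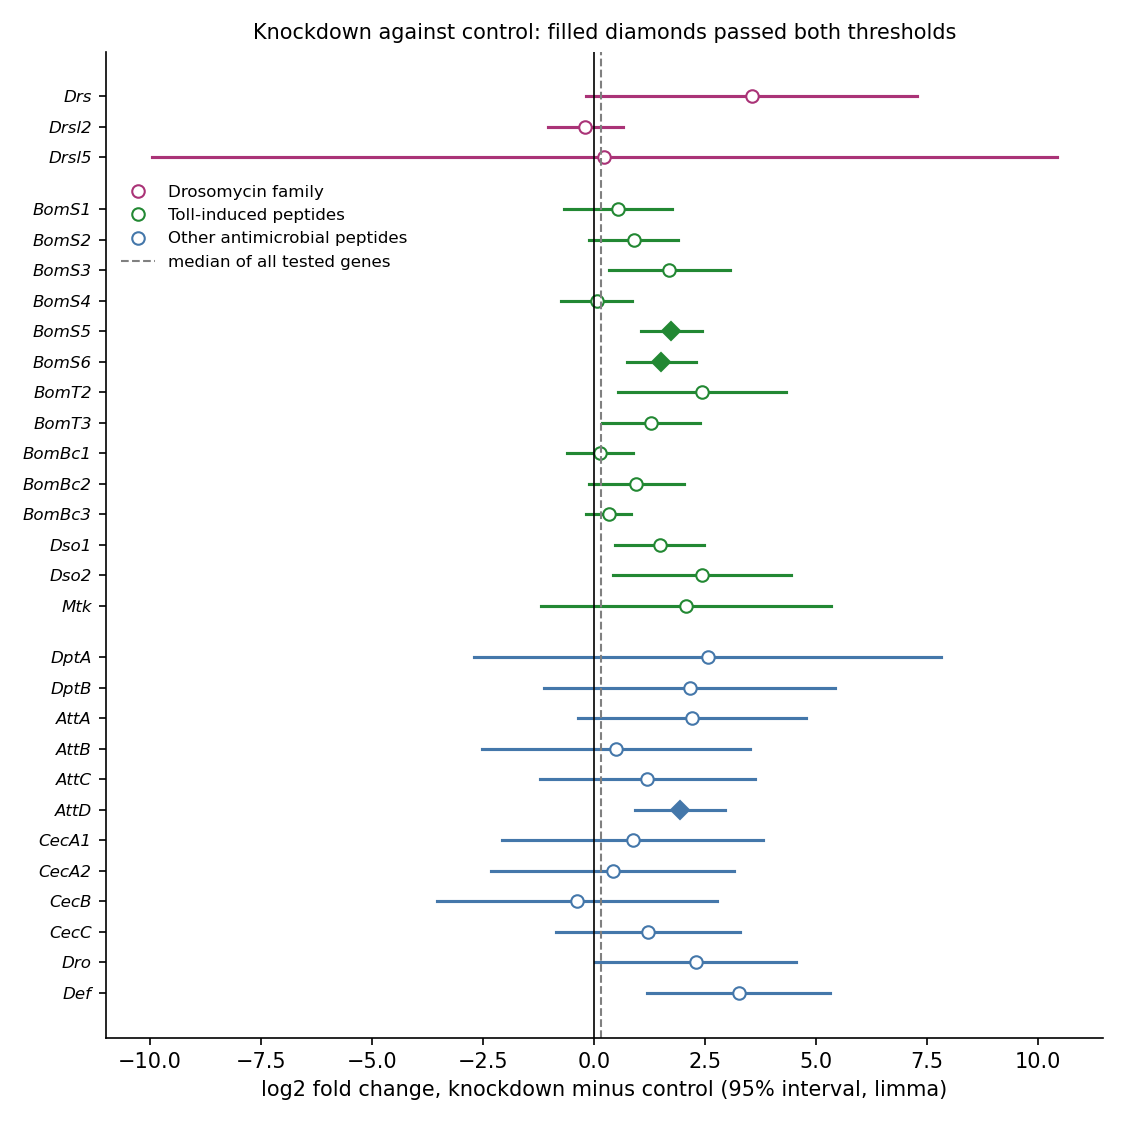
Log2 fold change, knockdown minus control, on the log2(FPKM + 0.1) scale with its 95% interval from limma for the tested drosomycin genes and for the Toll-induced and other antimicrobial peptides. Filled diamonds mark the called genes *BomS5*, *BomS6* and *AttD*, and the dashed line marks the median of all tested genes (0.16). The interval of *Drs* reaches from -0.18 to 7.28 and that of *Drsl5* from -9.96 to 10.4.

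Control replicate 3 had the highest level among the controls for *Drs*, *Drsl2* and *Drsl5*. This was also so for 11 of the 12 other antimicrobial peptides, and for 47.1% of all tested genes. Among the 14 tested Toll-induced peptides it was the highest control only for metchnikowin (*Mtk*), with 122 FPKM against 17.6 and 8.31 FPKM in control replicates 2 and 4. The 12 antimicrobial peptides outside the family summed to 65.6, 432 and 32.0 FPKM in controls and to 462, 234 and 478 FPKM in knockdown larvae. Without control replicate 3, 5 of these 12 peptides were called and 0 of the 14 Toll-induced ones, and the log2 fold change of *Drs* was 4.18 (adjusted p = 0.258, limma). In that fit 270 of 9966 tested genes were called. As this library was the highest control for 11 of the 12 peptides, leaving it out lowers their control means.

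In JAK/STAT signalling, which is known to act on *Drsl3* in the infected gut, 1 of 7 genes was called, beside 2.91% of all tested genes. The ligand gene *upd1* rose from 0.53, 0.74 and 0.47 to 2.03, 3.42 and 1.90 FPKM, by 1.88 on the log2 scale (standard error 0.27, adjusted p = 0.00810, limma). The ligand gene *upd3* had a log2 fold change of 0.83 (adjusted p = 0.0308, limma), less than 2-fold. Over the 13 alternatives that tested it, its adjusted p ran from 0.0299 to 0.151 (limma). The median of the 7 genes was 0.78, and all were positive except that *hop*, the Janus kinase, turned negative after median-of-ratios scaling, after quantile normalization, with the replicate block and without control replicate 4. *Stat92E*, the transcription factor, was at 0.19 (adjusted p = 0.360, limma), and *Socs36E*, a target and inhibitor of the pathway, at 0.78 (adjusted p = 0.186, limma). The levels of *Drsl3* itself overlapped between the groups.

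Markers of the tissues in which these peptides are made were all detected, with none of the 47 marker genes at 0 in any library. Of 18 midgut enzymes, 7 were called lower in the knockdown and 0 higher. Over all tested genes these shares were 1.08% and 1.82%. Together they were 2.91%, which also stands beside the counts called in the other marker lists. Their summed FPKM was 44776 to 71117 in controls and 31123 to 40198 in knockdown larvae. *Drsl2* had a log2 fold change of -0.19 beside a median of -0.83 for these enzymes, and the part of midgut content in its level was not tested. The 7 fat body genes summed to 21540 to 22543 FPKM in controls and 21709 to 26560 FPKM in knockdown larvae, with 0 called. This sum joins genes that moved in opposite directions, with log2 fold changes from -2.67 to 1.21. Of the 7, 3 were separated upwards and 0 downwards, beside 28.8% of all tested genes separated upwards. The sums of 8 haemocyte genes were 142 to 164 and 194 to 221 FPKM, those of 5 tracheal genes 506 to 632 and 576 to 686 FPKM, and those of 9 salivary gland genes 10583 to 26971 and 6157 to 12895 FPKM, with 0 called in each list. The sums of the haemocyte genes did not overlap between the groups. Singly, 4 of the 8 were separated upwards, beside 28.8% of all tested genes, and their log2 fold changes ran from -0.03 to 0.72. The part of haemocyte genes in the level of *Drs* was not tested. In the salivary gland list the log2 fold changes ran from -2.88 to 0.88, so its sum joins genes that moved in opposite directions.

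The genes with the profile most like each abundant member were listed as a description, over 6 libraries of both genotypes and 9978 tested genes. For *Drsl5* these were *CG14664*, *CG34206* and *CG34193* (Pearson's r of 0.989, 0.988 and 0.986). *CG14664* was listed at 0.47, 888 and 167 FPKM in controls and at 346, 9.55 and 217.5 FPKM in knockdown larvae. *CG34193* was listed at 0.17, 423 and 44.6 FPKM in controls and at 240.1, 3.78 and 98.7 FPKM in knockdown larvae. Like *Drsl5*, all 3 were lowest in control replicate 2, highest in control replicate 3 and second highest in knockdown replicate 1. Such a shared order largely follows from the choice of genes by their correlation with *Drsl5*. *CG34193*, *CG14664* and *CG34206* held ranks 3, 4 and 15 by within-group SD, and they lie on other chromosome arms than *Drsl5*.

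**Figure D4:**
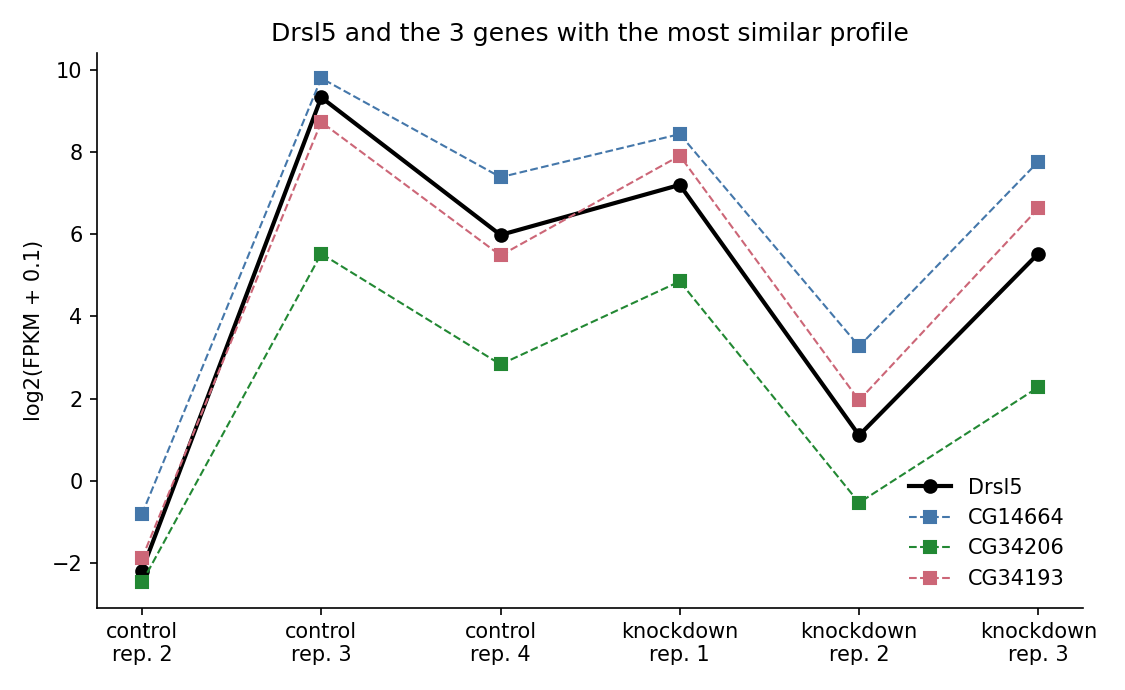
Log2(FPKM + 0.1) of *Drsl5* and the 3 tested genes with the highest Pearson correlation to it across the 6 libraries, where lines only join the values of 1 gene. All 4 genes are lowest in control replicate 2 and highest in control replicate 3, which largely follows from the choice by correlation.

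For *Drs* and *Drsl2* many genes had similar profiles. As many as 1218 tested genes had an r above 0.9 with *Drs*, 399 with *Drsl2* and 54 with *Drsl5*. The closest to *Drs* were *CG15098*, *Odj* (CG7357 among the symbols used) and the Notch target *E(spl)m8-HLH* (r of 0.998, 0.998 and 0.996), with log2 fold changes of 0.29, 0.33 and 0.76. The closest to *Drsl2* were *CG11790*, *CG5446* and *fzy*, an activator of the anaphase-promoting complex (r of 0.996, 0.993 and 0.993), with log2 fold changes of -0.05, -0.04 and -0.12.

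The genes that lie between the members were steadier than *Drs* and *Drsl5*, as were nearly all tested genes. The annotation places 9 other genes in the interval from *Drsl2* to *Drs*, of which 8 were measured and tested. Of these 0 were called, and their log2 fold changes ran from -0.21 for *kst* to 0.18 for *CG12016*. *kst*, the neighbour of *Drs*, was at 50.6, 36.9 and 52.9 FPKM in controls and at 35.6, 45.1 and 39.8 FPKM in knockdown larvae, and its groups overlapped. *PIG-C*, the gene next to *Drsl5*, ranged from 1.14 to 1.52 FPKM in controls and from 1.21 to 1.64 FPKM in knockdown larvae. The within-group SD of the 8 genes was 0.05 to 0.61 on the log2 scale, beside a median of 0.20 over all tested genes. All 8 were below *Drs* and *Drsl5*, which ranked 66 and 2 by this SD among the 9978 tested genes. The SD of *CG12016* was above the 0.53 of *Drsl2*. *CG12016*, with the SD of 0.61, shares its annotated interval with *Dpm2*, so fragments could have been assigned to either.

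**Figure D5:**
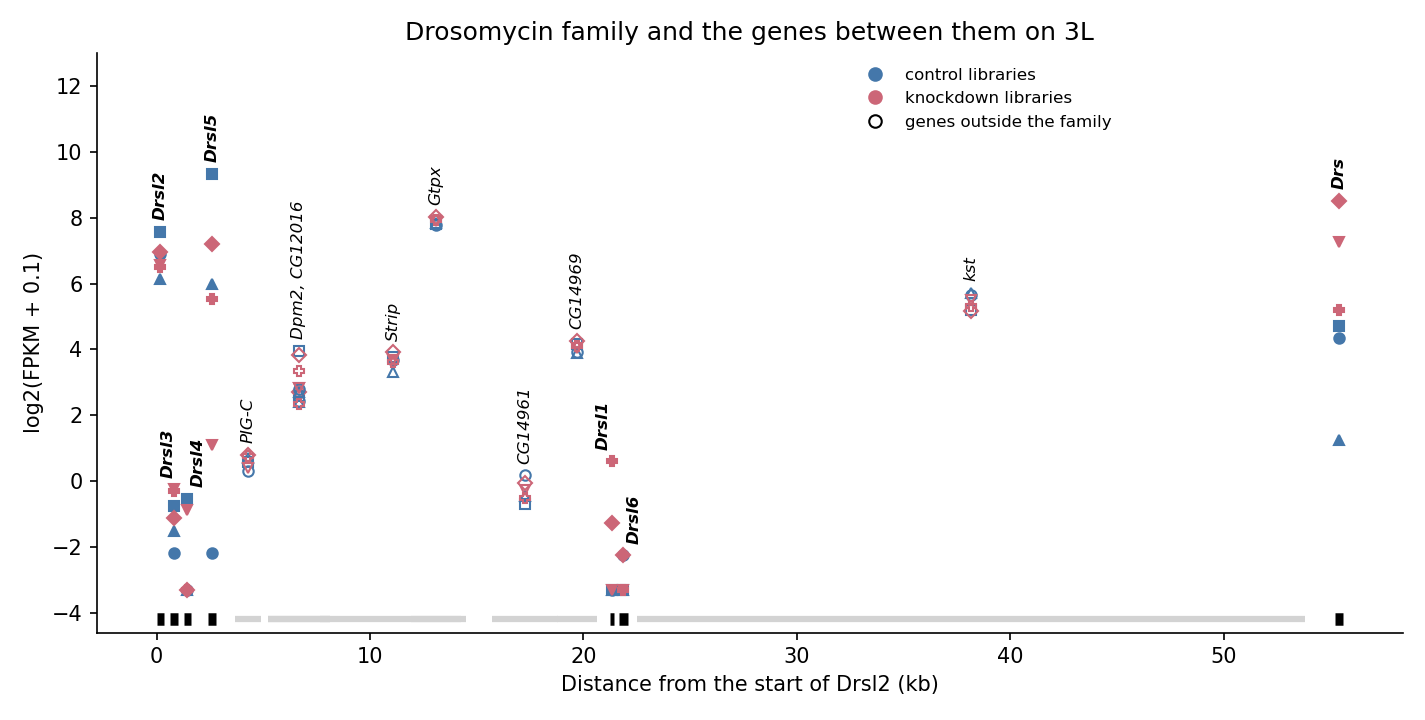
Log2(FPKM + 0.1) of the 7 drosomycin genes (filled symbols, bold names) and of the 8 tested genes between them (open symbols) against the distance from the start of *Drsl2* in kilobases, with gene extents at the bottom in black for the family and grey for the others. The symbols of neighbouring genes lie close together, whereas those of *Drs* and *Drsl5* spread widely between libraries.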

How the data were processed

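Poly(A) RNA was sequenced as paired reads of 100 bp. The authors cleaned the reads (SOAPnuke), aligned them to the genome (HISAT2) and estimated levels (RSEM). The deposited values are FPKM for each gene and library, rounded to 2 decimals. Tool versions and the genome build are not given in the sources used here, and read counts were not analysed here. The absolute depth is unknown. Its ratio between libraries was not estimated, as only 15 to 51 low genes per pair of libraries had values of at least 0.1 FPKM in both and no more than 11 shared a ratio within 5%. The labels call each pool of larvae a biological replicate, and p-values measure the spread between these pools.

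For 9978 genes with a mean of at least 0.5 FPKM, the deposited values were taken to log2(FPKM + 0.1). Condition was the only term in limma (version 3.58.1, R version 4.3.3), with trended and robust variance. Fold changes on this scale understate those of low genes. P-values were adjusted by Benjamini-Hochberg over all genes tested. The code was tested on simulated data. Exact permutation tests used SciPy version 1.17.1.

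The members, gene lists and tests were chosen with earlier results of these data known. Of 119 listed genes, 14 were matched by gene ID to an older symbol. Named genes are all members, *Dctn1*, called or most abundant genes of each list (at most 4), the 3 most similar profiles per tested member and the genes between members. Others, such as *Dredd*, *IKKbeta*, *PGRP-LC*, *Tl*, *dl*, *Dif*, *BomS4*, *BomBc1*, *Def*, *hop* and *upd3*, were named after their values were seen. No sequences were printed or compared. Alternatives were pseudocounts of 1 and 0.01, no filter, a mean of at least 5 FPKM, median-of-ratios scaling, quantile normalization, variance without trend and robustness, the replicate number as a block, and each library left out in turn.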

Additional observations from a re-analysis of the deposited data

How the results depend on the processing

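*Drs* kept its direction and stayed uncalled in all 14 alternatives, with log2 fold changes from 1.70 to 4.45 and adjusted p-values from 0.110 to 0.466 (limma), and from 2.46 to 4.45 with single libraries left out. *Drsl2* turned from -0.19 to 0.15 without control replicate 3 and ranged from -0.56 to 0.15 with single libraries left out. *Drsl5* turned from 0.24 to -0.37 with a pseudocount of 1 and to -0.25 with the replicate block, and ranged from -3.04 to 2.71 with single libraries left out; its 5 changes of sign include those without control replicate 2 and knockdown replicates 1 and 3 (-3.04, -1.06 and -0.22). The cause was not tested. The difference *Drs* minus *Drsl2* stayed between 3.02 and 4.56, and *Drs* minus *Drsl5* between 1.42 and 7.05, with single libraries left out.

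The labels share only the numbers 2 and 3 between groups and name no batch. The deviations of same-numbered libraries from their group means correlated at 0.40 and 0.14, while those of knockdown replicate 1 and control replicate 3 correlated at 0.63. Knockdown replicate 1 and control replicate 4 have no counterpart with the same number, so they add nothing to a fit with the replicate block. Such a fit compares replicates 2 and 3 alone and is not an adjustment of all libraries. With the replicate block, *Drs* had a log2 fold change of 1.70 (adjusted p = 0.380, limma) and *Drsl2* of -0.69 (adjusted p = 0.140, limma). The block gave 8 called Toll-induced peptides in place of 2 and 0 JAK/STAT genes in place of 1. Among all 9978 tested genes it gave 388 called in place of 290. The 1 other antimicrobial peptide called with the block was *Dro*, and *AttD* was not called (adjusted p = 0.253, limma).

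The 2 called Toll-induced peptides became 0 with no filter, median-of-ratios scaling or quantile normalization, and 0 to 3 with single libraries left out. The 1 called antimicrobial peptide became 2 with a pseudocount of 1 and 0 with no filter, a mean of at least 5 FPKM, median-of-ratios scaling or quantile normalization, and 0 to 5 with single libraries left out, the 5 arising without control replicate 3. The 1 called JAK/STAT gene became 0 at a mean of at least 5 FPKM, where *upd1* is not tested. Among all genes, 196 to 388 were called, and 115 of 235 were higher after median-of-ratios scaling.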

Other observations

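*PGRP-SB2*, a peptidoglycan recognition protein gene chosen after its values were seen, ranked 5 by within-group SD, 3 places after *Drsl5*. It was listed at 0.05, 86.6 and 0 FPKM in control replicates 2, 3 and 4 and at 50.7, 1.03 and 6.08 FPKM in knockdown replicates 1, 2 and 3. It thus shared with *Drsl5* the highest level in control replicate 3 and the second highest in knockdown replicate 1, but was listed at 0 in control replicate 4, where *Drsl5* was at 63.04 FPKM.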
